A study of Mus musculus with 22 samples.

Results

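The expression of 10 extracellular matrix proteases and protease inhibitors was followed across 22 arrays of scraped mouse aortic intima. They were the matrix metalloproteinases Mmp2, Mmp3, Mmp13 and Mmp14, the ADAMTS proteases Adamts1, Adamts4 and Adamts10, and the tissue inhibitors of metalloproteinases Timp1, Timp2 and Timp3. The 10 genes were chosen by name from the platform's annotation, out of 11807 genes that the array names, and each was read from the 1 of its probe sets that had the highest average signal in the 22 arrays.

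All mice carried the strain label C57BL/6 and were kept on chow. Fresh intima came from 4-week-old ApoE -/- mice (n = 4), which the labels call hyperlipidemic and pre-lesioned, and from wild-type mice of the same age (n = 6). Opened aortas of wild-type mice, whose age the labels do not give, were incubated for 4 h at 37 °C in DMEM with 1% serum, alone (called medium here, n = 3) or with 1 of 3 stimuli (n = 3 each). The stimuli were LPS (lipopolysaccharide of the bacterial cell wall, at 4 ng/mL), oxLDL (low-density lipoprotein after oxidation, at 50 µg/mL) and oxPAPC (an oxidized arachidonoyl phospholipid and its products, at 50 µg/mL). The intima was then scraped off and its RNA amplified. Values are log2 signals, so a difference of 1 is a doubling of the signal. Every ± is a standard error from limma unless SD is written, and a gene is called where its adjusted p from limma is under 0.05. How many mice each array represents is not in the labels, and the p-values therefore reflect array-to-array spread, which may be technical.

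Matrix metalloproteinases are zinc proteases that are made as inactive precursors and cut collagens, elastin, proteoglycans and other matrix proteins once their propeptide is removed. ADAMTS proteases are secreted relatives with thrombospondin repeats, several of which cut the large proteoglycans versican and aggrecan. TIMPs bind the active site of these enzymes and block them. In the artery wall the balance of the proteases and inhibitors is known for its part in matrix turnover during remodelling and atherosclerosis.

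Promoter sequences were at hand for 7 of the 10 genes (RefSeq, GRCm38.p6), the exceptions being Mmp2, Adamts4 and Adamts10. Mmp13 and Mmp3 lie in the same cluster of metalloproteinase genes on chromosome 9, and an AP-1 element near the start is a textbook feature of both promoters. Their 250 bases before the annotated start are shown because they were the only ones of the 7 windows that held the AP-1 motif TGANTCA, which reads the same on both strands and is in capitals here. The windows are chr9:7272264-7272513 (Mmp13) and chr9:7445572-7445821 (Mmp3), both on the plus strand.
Mmp13: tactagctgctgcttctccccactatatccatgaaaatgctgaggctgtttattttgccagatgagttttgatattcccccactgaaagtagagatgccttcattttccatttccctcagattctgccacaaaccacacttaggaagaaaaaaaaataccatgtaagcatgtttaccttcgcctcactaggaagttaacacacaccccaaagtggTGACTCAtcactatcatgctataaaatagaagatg
Mmp3: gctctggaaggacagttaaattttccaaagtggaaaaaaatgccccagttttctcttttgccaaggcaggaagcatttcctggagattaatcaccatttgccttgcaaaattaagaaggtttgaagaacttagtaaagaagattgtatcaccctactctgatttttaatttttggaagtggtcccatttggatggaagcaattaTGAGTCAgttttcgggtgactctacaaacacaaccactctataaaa
The motif stood at −35 to −29 as TGACTCA in Mmp13 and at −46 to −40 as TGAGTCA in Mmp3, counted from the annotated start. It was present in 6.75% of all 32851 promoter windows of this length. A TATAAA box, searched on both strands, was present in Mmp13, Mmp3 and Adamts1, each time on the plus strand of the gene. Of all windows, 12.4% held it on either strand. The RUNX motif TGTGGT, searched on both strands, was present in Mmp13 and Mmp14, against 14% of all windows. An NF-kB motif, also searched on both strands, was in none of the 7 windows and in 4.11% of all. A match is a description of the letters and not a measured binding site.

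Some facts about the arrays bear on every result. Apoe itself gave 3.04 to 3.23 in the ApoE -/- arrays and 3.78 to 4.35 in the wild-type fresh arrays, with all values below the 40th percentile of the array, which lay between 4.58 and 4.71 and is used here as the mark of a low signal. It is not known here if the Apoe probes match the sequence that was removed. The incubated arrays, labelled as wild type, gave 3.63 to 3.85 in medium, 3.57 to 3.89 with oxLDL and 3.08 to 3.55 with LPS. With oxPAPC they gave 3.06 to 3.18, inside the range of the ApoE -/- arrays. Source labels of the fresh arrays name the material MAECs, for mouse aortic endothelial cells, but markers of other cells gave high signals too. The values therefore cannot be assigned to endothelial cells alone. Endothelial markers averaged 8.03 to 8.69 in fresh wild-type arrays, and 1 of 16 (Robo4) lay below the 40th percentile in every array. Smooth muscle markers (12 on the array) averaged 8.43 to 9.25 in fresh wild type, 9.11 to 9.30 in ApoE -/-, 7.35 to 8.26 in medium, 8.37 to 8.63 with LPS, 8.12 to 8.60 with oxLDL and 8.45 to 8.86 with oxPAPC, and none of the 12 lay below that percentile throughout any group. In bulk RNA, fewer cells of a type and less RNA per cell cannot be told apart. Neutrophil markers gave no call in any comparison, and 5 of the 7 on the array (S100a8, Csf3r, Cxcr2, Ngp and Camp) lay below the 40th percentile in every array. One array, oxPAPC replicate 13, stood apart from the other two oxPAPC arrays for Adamts4, Timp1, Mmp3 and Mmp14. Calls on the main probe set of the 10 genes against oxPAPC arrays are given with and without it, and further probe sets with it only.

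**Figure D1:**
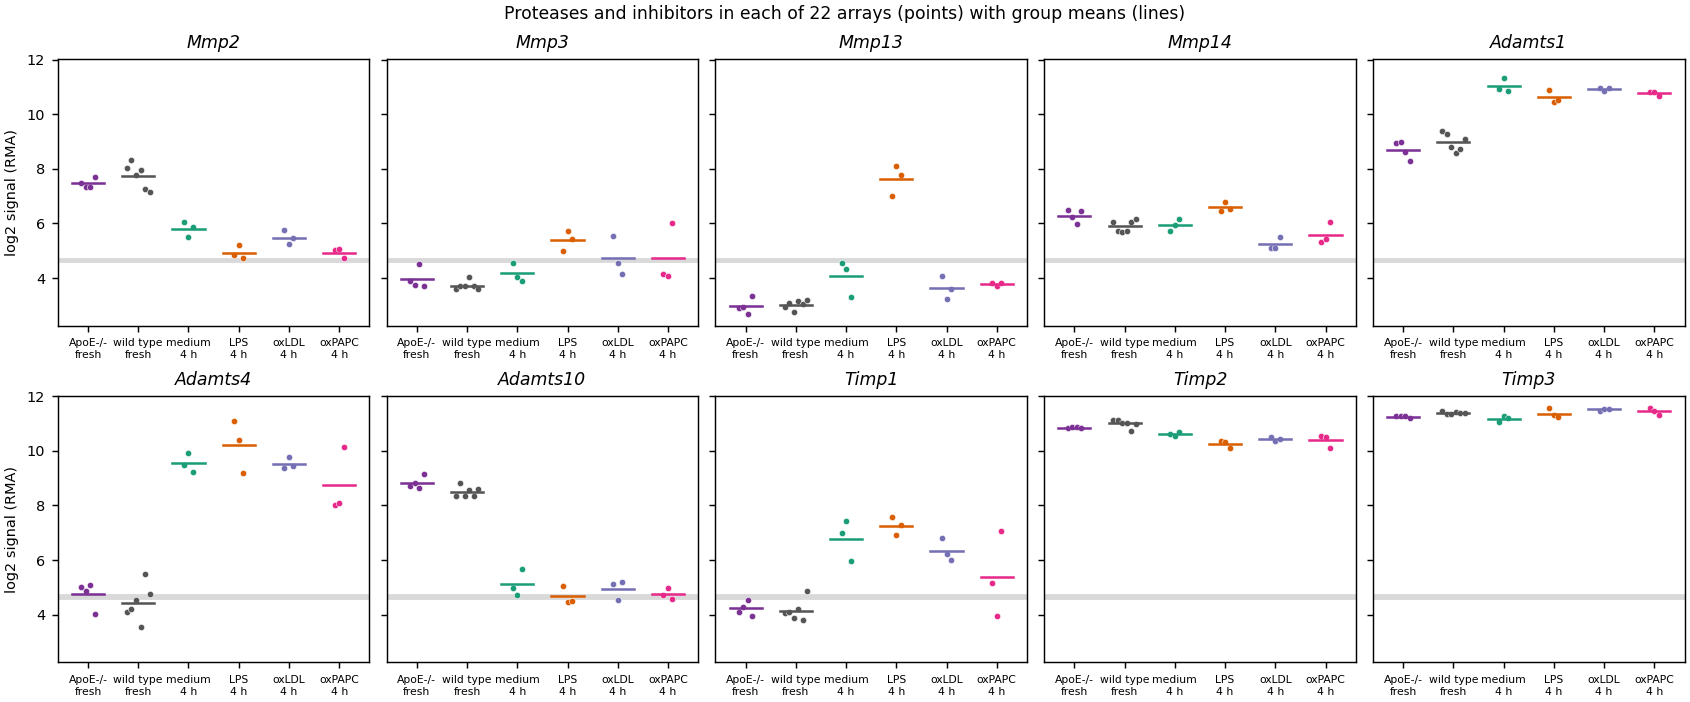
Log2 signal (vertical axis) of the 10 genes in each of the 22 arrays (points), by group (horizontal axis), with group means as lines; the grey band spans the arrays' 40th percentiles, 4.58 to 4.71. Mmp13 stands above the band in the 3 LPS arrays only, Adamts4, Timp1 and Adamts1 have higher means in all 4 incubated groups than in both fresh groups, and Mmp2 and Adamts10 lower ones. Heights of different panels are not comparable, since probe affinities differ.

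Incubation of the opened aorta for 4 h in medium went with large differences of these genes from fresh wild-type intima. The proteoglycan-cutting proteases Adamts4 and Adamts1 and the inhibitor Timp1 rose, while the microfibril-associated protease Adamts10, the gelatinase Mmp2 and the inhibitor Timp2 fell. Of the 8 genes above the level filter, 3 were called higher and 3 lower. This stands against 58.7% of all 7508 genes tested that were called in the same comparison, 1824 higher and 2586 lower, so a call is no mark of these genes. The median difference was −0.08 over the 8 genes and −0.13 over all genes tested. Adamts4 and Timp1 passed the level filter only with the medium arrays, where they are high. For both, 3 of 3 medium arrays lay above the 40th percentile, against 2 (Adamts4) and 1 (Timp1) of the 6 fresh wild-type arrays. Their calls, and the median that holds them, are therefore a description. After each array was centred on its median the split was 2229 higher and 1975 lower, the median of all genes 0.02, and the differences below moved up by the same small shift. The labelled age covers the fresh arm only, and incubation cannot be told apart from whatever else differed between the arms.

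Adamts4, an aggrecanase that also cuts versican, measured 9.48, 9.94 and 9.22 in medium replicates 9, 10 and 11. Fresh wild-type arrays ranged from 3.56 to 5.50 with a median of 4.37, and 2 of the 6 lay above the 40th percentile. The groups were separated by a wide gap, with a difference of 5.10 ± 0.35 (34.4-fold, adjusted p = 1.49e-06). The second Adamts4 probe set gave 5.60 ± 0.22. The size of the difference depends on fresh values near background.

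Adamts1, a versican-cutting protease that also binds vascular endothelial growth factor, measured 10.93, 11.31 and 10.86 in medium. In fresh wild-type intima it ranged from 8.60 to 9.40 with a median of 8.94. No array of one group reached the other, and the rise was 2.05 ± 0.19 (4.15-fold, adjusted p = 1.01e-05). Adamts10, which is known for its link to fibrillin microfibrils, went the other way. It measured 4.99, 4.70 and 5.67 in medium against 8.33 to 8.83 (median 8.47) in fresh wild type. It fell by 3.39 ± 0.20 (10.5-fold, adjusted p = 5.97e-07), to a level near the 40th percentile.

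Among the metalloproteinases, Mmp2, a gelatinase made mainly by mesenchymal cells, measured 6.06, 5.50 and 5.86 in medium. Its fresh wild-type values ranged from 7.16 to 8.31 with a median of 7.87. The groups did not overlap, and Mmp2 fell by 1.95 ± 0.25 (3.86-fold, adjusted p = 8.38e-05). Mmp14, the membrane-bound activator of the Mmp2 precursor, measured 5.73, 5.96 and 6.15 in medium and 5.69 to 6.15 (median 5.89) in fresh wild type. Its arrays overlapped throughout, with a difference of 0.05 (95% interval −0.28 to 0.38, adjusted p = 0.792).

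The collagenase Mmp13 and the stromelysin Mmp3 were below the level filter in this comparison, all 9 arrays of each lying under the 40th percentile. Mmp13 measured 4.56, 4.35 and 3.29 in medium and 2.74 to 3.20 (median 3.07) in fresh wild type, a difference of 1.04 without overlap (exact two-sided permutation p = 0.0119, the smallest that 84 splits allow). Mmp3 measured 4.57, 4.05 and 3.89 in medium against 3.59 to 4.03 (median 3.71), a difference of 0.44 with overlap (exact two-sided permutation p = 0.0238). These p-values are not adjusted for the genes tested, and both signals are near background.

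Of the inhibitors, Timp1, the inducible member of the family, measured 6.99, 7.42 and 5.95 in medium. Fresh wild-type arrays ranged from 3.80 to 4.87 with a median of 4.08, and 1 of the 6 lay above the 40th percentile. All medium arrays were higher than all fresh ones, with a rise of 2.64 ± 0.31 (6.21-fold, adjusted p = 4.26e-05), a fold that depends on fresh values near background. Timp2, the inhibitor that also takes part in activating the Mmp2 precursor, measured 10.63, 10.54 and 10.69 in medium and 10.73 to 11.14 (median 11.02) in fresh wild type. It fell by 0.39 ± 0.12 (adjusted p = 0.014), without overlap. Its other 4 probe sets were also called lower, by 0.40 to 0.90. The call on the main probe set was lost after median centring (−0.24, adjusted p = 0.105), with a covariate for the smooth muscle markers (−0.45, adjusted p = 0.137) and without medium replicate 10 (adjusted p = 0.0584).

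Timp3, which is bound to the matrix, measured 11.06, 11.29 and 11.20 in medium and 11.34 to 11.44 (median 11.39) in fresh wild type. The difference of −0.21 was not called (95% interval −0.42 to 0.005, adjusted p = 0.085). The arrays did not overlap, and the difference was the smallest of the 3 inhibitors on their main probe sets in this comparison. Other Timp3 probe sets gave −0.40, −0.35 and −0.24, none called and all with overlap of the arrays.

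**Figure D2:**
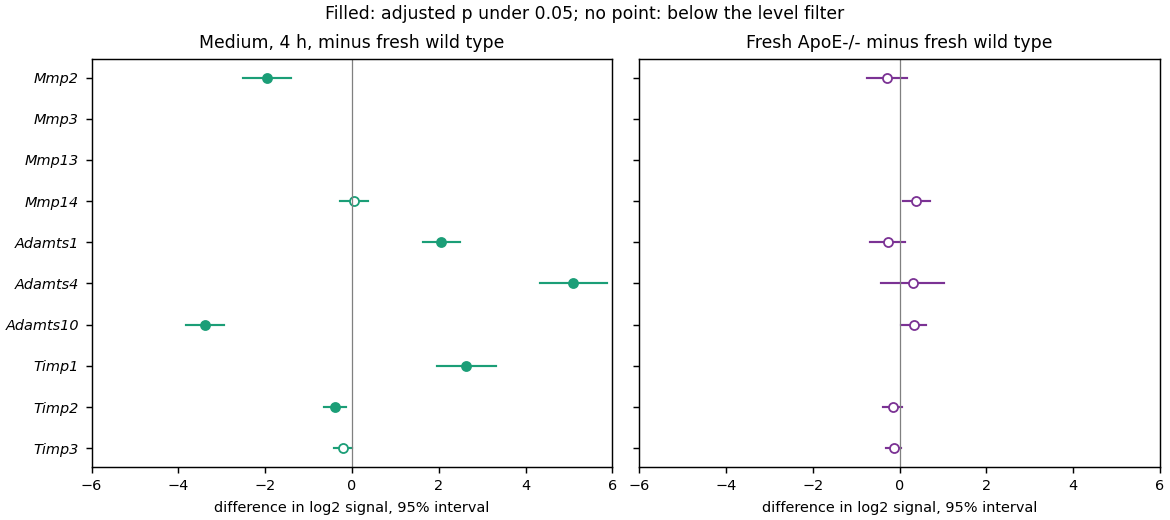
Differences in log2 signal (horizontal axis, points) with 95% intervals from limma (bars) for medium minus fresh wild type (left) and fresh ApoE -/- minus fresh wild type (right); filled points have an adjusted p under 0.05, and genes below the level filter have no point. Adamts4 at 5.10 and Adamts10 at −3.39 lie farthest from 0 on the left, and no point is filled on the right.

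Cell type markers also differed in the same comparison, to be read against the 58.7% of all genes called there. Smooth muscle markers were lower in medium (10 of 12 tested called lower, none higher, median −0.96), and so were most fibroblast markers (7 of 10 lower, 2 higher, median −1.05, mean level 7.13 to 7.73 in medium against 8.21 to 8.56 in fresh wild type). Macrophage markers were higher (8 of 9 tested called higher, median 1.33, mean level 6.13 to 6.35 in medium against 4.61 to 5.26), with Adgre1 and Cd14 below the 40th percentile in all fresh wild-type arrays. Cd68, Mrc1, C1qa and C1qb also had fresh wild-type means below it. Among the fresh arrays alone 7 macrophage markers passed the level filter, so this count and median are a description. The mean level was taken over all 11 on the array, without the filter. Endothelial markers split, with 5 of 15 higher and 2 lower, and erythroid and platelet markers gave 2 of 5 lower, both smaller shares than that of all genes. With a covariate for smooth muscle markers the differences of the other 5 called genes kept their calls, from 5.59 for Adamts4 and 1.74 for Timp1 to −3.15 for Adamts10. The mean of these markers did not overlap between medium (7.35 to 8.26) and fresh wild type (8.43 to 9.25). Nor did it overlap between medium and LPS or oxPAPC. In these comparisons the covariate runs along with the groups, so calls kept or lost under it cannot show the part of smooth muscle cells. The part of the fibroblast and macrophage markers in these results was not tested.

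**Figure D3:**
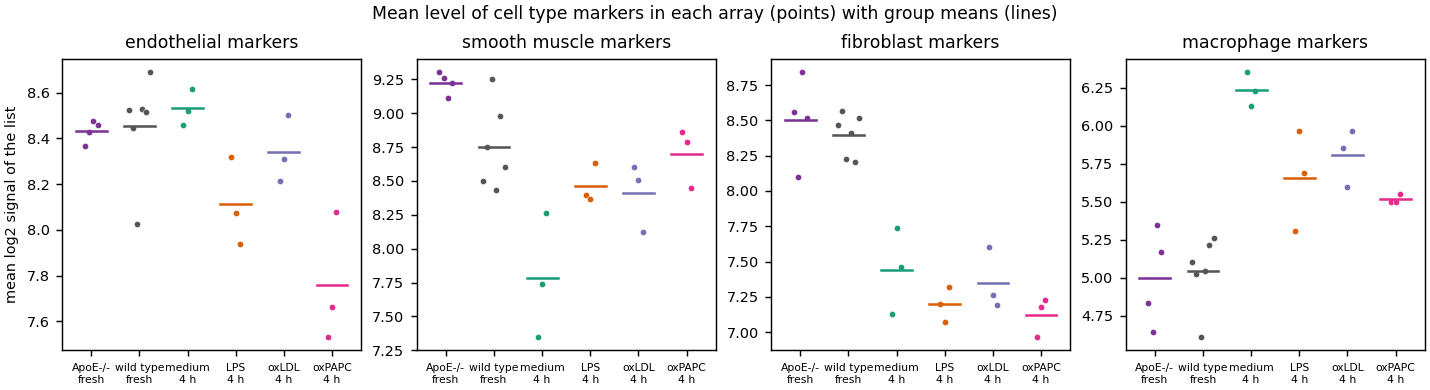
Mean log2 signal of 4 lists of cell type markers (vertical axis) in each array (points) by group (horizontal axis), with group means as lines. Smooth muscle markers are lowest in medium (7.35 to 8.26), endothelial markers lowest by mean with oxPAPC, and macrophage markers highest in medium (6.13 to 6.35).

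Genes around the proteases also differed after incubation, read against the 58.7% of all genes called there. Of 9 tested inhibitors and activating proteases, 5 rose and 1 fell. Plau (urokinase, which starts the plasmin cascade) rose by 4.43 ± 0.21, its receptor Plaur by 3.07 ± 0.10, Plat (tissue plasminogen activator) by 3.07 ± 0.24, the hyaluronan receptor Cd44 by 2.95 ± 0.21 and the precursor-cutting protease Furin by 0.87 ± 0.11, while Pcsk5 fell by 0.28 ± 0.10. Transcription factors and cytokines known to induce metalloproteinases were higher in 10 of 12 and lower in none (median 3.06). They included the AP-1 subunits Fosb (4.90 ± 0.56), Fosl1 (4.33 ± 0.23) and Fos (3.60 ± 0.61), and the factors Runx1 (2.66 ± 0.18) and Ets1 (2.42 ± 0.17). The cytokines Lif (4.22 ± 0.27), Il1b (3.74 ± 0.20) and Il6 (3.46 ± 0.28) were among them. Fosl1, Runx1, Lif, Il1b and Il6 had fresh wild-type means below the mark of a low signal, so the sizes of their differences depend on values near background. Among the fresh arrays alone 7 of these factors and cytokines passed the level filter. Their count of higher genes and their median are therefore a description.

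Matrix substrates were lower in 11 of 15 tested and higher in 1, with a median of −0.79. The collagens Col1a1 (−3.07 ± 0.32), Col3a1 (−2.61 ± 0.23), Col5a1 (−2.09 ± 0.18), Col4a2 (−1.23 ± 0.24) and Col4a1 (−1.16 ± 0.12), elastin (Eln, −2.13 ± 0.19) and versican (Vcan, −1.42 ± 0.24) fell, and the small proteoglycan decorin (Dcn) rose by 1.33 ± 0.27. Col1a1, Col3a1 and Dcn are also on the fibroblast list. Other metalloproteinases gave 1 higher and 4 lower of 6 tested. Mmp12, the macrophage elastase, rose by 3.06 ± 0.52, beside the higher macrophage markers. Mmp23 (−1.68 ± 0.28), Mmp17 (−1.39 ± 0.31), Mmp16 (−1.31 ± 0.19) and Mmp24 (−0.30 ± 0.11) fell. Among 3 other ADAMTS and ADAMTS-like genes tested, Adamtsl4 fell by 1.04 ± 0.16. Of 7 membrane sheddases of the ADAM family, Adam19 (2.45 ± 0.19) and Adam9 (1.11 ± 0.14) rose, and Adam33 (−1.21 ± 0.17), Adam17 (−0.47 ± 0.14) and Adam10 (−0.40 ± 0.10) fell.

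LPS, set against the same incubation in medium alone, raised Mmp13 and lowered Mmp2. These were the calls among the 10 genes, all of which passed the level filter over the incubated arrays, beside 9.05% of 7550 genes called in this comparison. The median difference was 0.33 over the 10 genes and −0.03 over all genes tested. Mmp13 passed the filter through the LPS arrays (3 of 3 above the 40th percentile, against 0 of the 9 other incubated arrays), so its call and this median are a description. Mmp3 also passed it only with the LPS arrays (3 of 3, beside 0 in medium and 1 each with oxLDL and oxPAPC). Its results with LPS are a description as well. The 3 stimuli were set against the same 3 medium arrays, so their differences from medium are not independent of each other.

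Mmp13 measured 7.02, 8.10 and 7.77 with LPS (replicates 3, 4 and 10), all well above the 40th percentile, and 4.56, 4.35 and 3.29 in medium, all below it. The lowest LPS array lay above the highest of all other 19 arrays. The difference was 3.57 ± 0.34 (11.8-fold, adjusted p = 0.000392), and it was called in all 6 fits that left out 1 array (3.18 to 3.87). Because the medium values are near background, the fold is less certain than the direction.

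Mmp3, from the same gene cluster as Mmp13, measured 4.99, 5.72 and 5.43 with LPS and 4.57, 4.05 and 3.89 in medium. The groups did not overlap, but the difference of 1.21 ± 0.48 was not called (95% interval 0.16 to 2.26, adjusted p = 0.128). In a fit of only these 2 groups it was called, with 1.21 ± 0.24 (adjusted p = 0.0349). That call is a description, since Mmp3 passed the level filter only with the LPS arrays. Mmp14 measured 6.44, 6.80 and 6.52 with LPS against 5.73, 5.96 and 6.15 in medium, again without overlap. Its difference of 0.64 ± 0.21 was not called (95% interval 0.19 to 1.10, adjusted p = 0.0728), and its second probe set gave −0.07 (95% interval −0.54 to 0.40).

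Mmp2 measured 4.85, 5.21 and 4.72 with LPS against 6.06, 5.50 and 5.86 in medium. All LPS arrays were lower than all medium arrays, and Mmp2 fell by 0.88 ± 0.20 (1.84-fold, adjusted p = 0.0216). The LPS arrays lay 0.20, 0.57 and 0.10 above the 40th percentile, so the fold is limited by values near background. The call was lost in 4 of 6 fits without 1 array (medium replicate 9 or 11, LPS replicate 3 or 10; highest adjusted p = 0.0819) and with a covariate for smooth muscle markers, where the difference was −0.87 ± 0.29 (adjusted p = 0.139).

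The other 6 genes were not called with LPS. Adamts4 measured 11.10, 10.39 and 9.18, Adamts1 10.90, 10.45 and 10.51, and Adamts10 5.06, 4.46 and 4.49, with differences from medium of 0.67 (95% interval −0.51 to 1.86), −0.41 (−0.77 to −0.06) and −0.45 (−1.02 to 0.12). Each of these 3 overlapped the medium arrays. Timp1 measured 7.57, 6.93 and 7.30, Timp2 10.34, 10.34 and 10.10, and Timp3 11.56, 11.30 and 11.23, with differences of 0.48 (95% interval −0.86 to 1.82), −0.36 (−0.67 to −0.04) and 0.18 (−0.12 to 0.47). All LPS arrays of Timp2 lay below the medium arrays, while Timp1 and Timp3 overlapped them. The share of all genes without overlap is not given here, so this separation is a description.

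Beside these values, 3 of 12 smooth muscle markers were higher with LPS and none lower, 4 of 15 endothelial and 4 of 11 macrophage markers were lower and none higher, and 2 of 10 fibroblast markers were lower. Their part in the results was not tested. Mmp13 kept its call under the smooth muscle covariate, which did not overlap between LPS and medium and so cannot decide this. Of the surrounding genes, Il1b rose by 1.65 ± 0.28, Plau by 0.98 ± 0.20 and Adam28 by 0.56 ± 0.16. Matrix substrates split, with Vcan (0.98 ± 0.22), Lamc1 (0.70 ± 0.18) and Ncan (0.55 ± 0.14) higher and Lamb1 (−1.71 ± 0.38), Hspg2 (−1.50 ± 0.28) and Dcn (−0.66 ± 0.18) lower. None of 5 other metalloproteinases and none of 3 other ADAMTS genes tested was called with LPS or with oxLDL.

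With oxLDL none of the 10 genes was called by limma, beside 2.81% of all 7550 genes. On their main probe sets Mmp14 and Timp3 had an unadjusted p from limma under 0.05. That is not a call, and no share of all genes at this threshold is given here. The median difference was −0.18 over the 10 genes and 0.01 over all. The largest was that of Mmp14, which measured 5.11, 5.11 and 5.52 with oxLDL against 5.73, 5.96 and 6.15 in medium. The groups did not overlap, and the difference was −0.70 ± 0.21 (95% interval −1.16 to −0.25, adjusted p = 0.0878). Its second probe set gave −0.47 (95% interval −0.94 to −0.006, adjusted p = 0.225).

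Mmp13 measured 4.09, 3.25 and 3.60 with oxLDL, below the 40th percentile like the medium arrays, a difference of −0.42 (95% interval −1.16 to 0.32). Mmp3 measured 5.56, 4.56 and 4.14, with 1 array above the percentile and a difference of 0.58 (95% interval −0.47 to 1.63). Mmp2 measured 5.76, 5.24 and 5.45, a difference of −0.32 (95% interval −0.75 to 0.11). All 3 overlapped the medium arrays.

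Adamts4 measured 9.37, 9.78 and 9.45 with oxLDL, a difference of −0.01 (95% interval −1.20 to 1.17). Adamts1 measured 10.97, 10.84 and 10.97, a difference of −0.11 (95% interval −0.46 to 0.24), and Adamts10 5.12, 4.55 and 5.18, a difference of −0.17 (95% interval −0.74 to 0.41). All 3 ADAMTS proteases overlapped the medium arrays, and the interval for Adamts4 spans more than a doubling in each direction. Timp1 measured 6.79, 6.21 and 5.99, a difference of −0.45 (95% interval −1.79 to 0.89).

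Timp2 measured 10.50, 10.35 and 10.43, just under the medium arrays, with a difference of −0.19 (95% interval −0.51 to 0.12). A further Timp2 probe set was called lower, by 0.94 ± 0.18 (adjusted p = 0.0208), while the other 3 were not called. Timp3 measured 11.47, 11.55 and 11.55, above all medium arrays, with a difference of 0.34 (95% interval 0.04 to 0.63, adjusted p = 0.178). Its other probe sets gave 0.12, 0.14 and 0.11, with overlap of the arrays and 95% intervals that included 0. Of the surrounding lists, 3 of 15 matrix substrates were lower (Lamb1, −2.12 ± 0.38; Hspg2, −1.71 ± 0.28; Dcn, −0.76 ± 0.18), and no inducing factor, activator or sheddase was called. No smooth muscle marker was called (median 0.66), 1 endothelial and 1 macrophage marker and 2 fibroblast markers were lower.

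**Figure D4:**
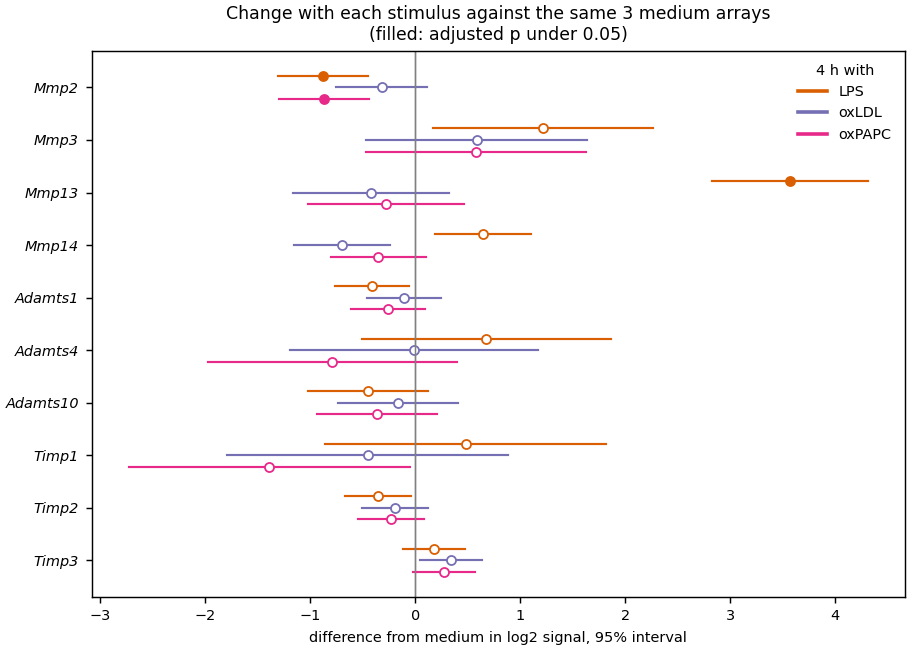
Differences from medium in log2 signal (horizontal axis, points) with 95% intervals from limma (bars) for LPS, oxLDL and oxPAPC, all against the same 3 medium arrays; filled points have an adjusted p under 0.05. Mmp13 with LPS at 3.57 stands apart, Mmp2 is filled with LPS and oxPAPC, and no oxLDL point is filled.

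With oxPAPC the call among the 10 genes was Mmp2, which was lower, beside 21.3% of all 7550 genes called. The median difference was −0.31 over the 10 genes and −0.05 over all. Mmp2 measured 5.02, 5.05 and 4.73 with oxPAPC (replicates 11, 12 and 13) against 6.06, 5.50 and 5.86 in medium, with no overlap. It fell by 0.87 ± 0.20 (1.83-fold, adjusted p = 0.0115). Its oxPAPC arrays lay 0.39, 0.43 and 0.12 above the 40th percentile, so the fold is limited by values near background. The call was lost without medium replicate 9 (adjusted p = 0.0504) and with a covariate for smooth muscle markers, where the difference was −0.86 ± 0.34 (adjusted p = 0.278). Smooth muscle markers were higher with oxPAPC in 8 of 12 and lower in none, endothelial markers lower in 9 of 15 and higher in none (mean level 7.53 to 8.08 against 8.46 to 8.62 in medium), and macrophage markers lower in 8 of 11. Fibroblast markers gave 1 higher and 2 lower of 10, and erythroid and platelet markers 2 lower of 5.

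The oxPAPC arrays disagreed on Timp1 and Adamts4, 2 of the 3 genes that incubation raised. Timp1 measured 5.17 and 3.95 in replicates 11 and 12 and 7.06 in replicate 13. The first pair lay below every medium array and the last within the medium range, so the difference of −1.39 ± 0.61 was not called (95% interval −2.73 to −0.05, adjusted p = 0.123). Adamts4 measured 8.02 and 8.10 in replicates 11 and 12 and 10.13 in replicate 13, the first pair below and the last above all medium arrays. Its difference was −0.79 ± 0.54 (95% interval −1.98 to 0.39, adjusted p = 0.316), and on the second probe set −1.06 (adjusted p = 0.142).

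The same array was the highest of its group for Mmp3 and Mmp14 too. Mmp3 measured 4.15, 4.07 and 6.01, a difference of 0.58 (95% interval −0.47 to 1.63), and Mmp14 5.32, 5.42 and 6.04, a difference of −0.35 (95% interval −0.81 to 0.10). On its second probe set Mmp14 was called lower, by 0.85 ± 0.21 (adjusted p = 0.0185), and as the mean of its probe sets by 0.60 ± 0.19 (adjusted p = 0.0454). Replicate 13 was the lowest of the group for Timp2 (10.11), Timp3 (11.31), Adamts1 (10.67), Adamts10 (4.57) and Mmp2 (4.73). Replicate 13 also had the highest endothelial mean of the 3 oxPAPC arrays (8.08 against 7.53 and 7.66) and the lowest smooth muscle mean (8.45 against 8.86 and 8.79); the part of these in its values was not tested.

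Without replicate 13, which was singled out after its values were seen, 4 of the 10 genes were called lower with oxPAPC, beside 26.5% of all genes. Timp1 fell by 2.23 ± 0.45 (adjusted p = 0.00561), Adamts4 by 1.48 ± 0.43 (adjusted p = 0.0279), Mmp2 by 0.77 ± 0.22 (adjusted p = 0.0243) and Mmp14 by 0.58 ± 0.19 (adjusted p = 0.0427). The difference of Mmp3 turned to −0.05 (95% interval −0.86 to 0.75). Only the Mmp2 call was thus present both with and without this array.

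**Figure D5:**
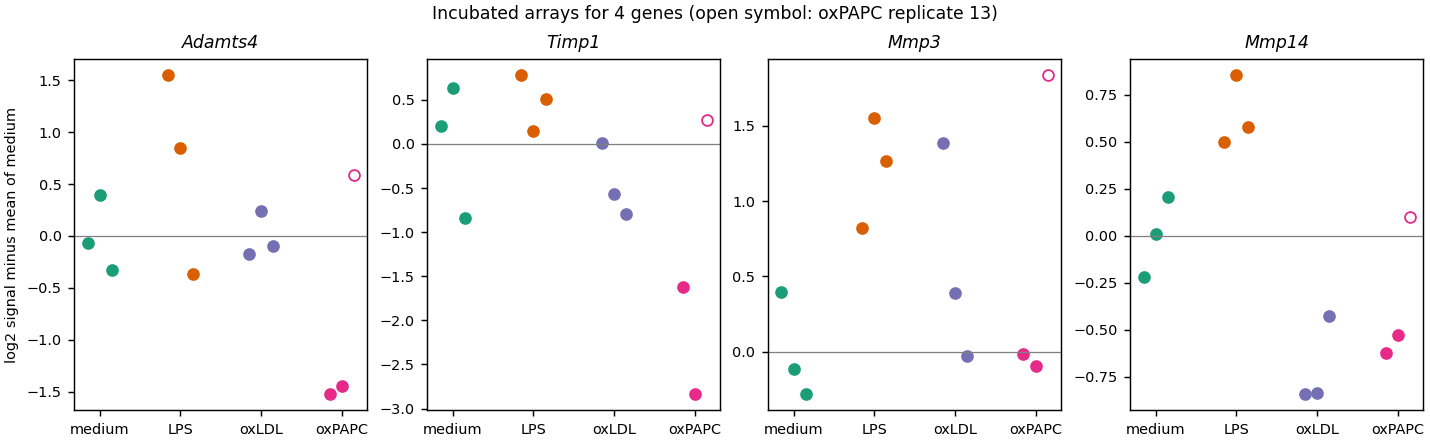
Log2 signal minus the mean of the medium arrays (vertical axis) for Adamts4, Timp1, Mmp3 and Mmp14 in each incubated array (points), by group (horizontal axis); the open symbol is oxPAPC replicate 13. In all 4 panels replicate 13 lies above the other two oxPAPC arrays, for Adamts4 at 10.13 against 8.02 and 8.10 on the log2 scale. The vertical scales of the panels differ.

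The remaining 5 genes were not called with oxPAPC. Mmp13 measured 3.83, 3.73 and 3.80, below the 40th percentile, a difference of −0.28 (95% interval −1.02 to 0.47). Adamts1 measured 10.83, 10.83 and 10.67 (difference −0.26, 95% interval −0.61 to 0.09) and Adamts10 4.73, 4.96 and 4.57 (difference −0.37, 95% interval −0.94 to 0.21). Timp2 measured 10.53, 10.51 and 10.11 (difference −0.23, 95% interval −0.55 to 0.08) and Timp3 11.58, 11.46 and 11.31 (difference 0.27, 95% interval −0.03 to 0.57). Adamts1 and Timp2 lay below all medium arrays and Timp3 above them, by small amounts. As no share of all genes without overlap is given, this separation is a description. Other Timp3 probe sets gave 0.54, 0.17 and −0.02, none of them called.

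Of the surrounding genes, oxPAPC lowered Plat by 1.85 ± 0.37, Bsg (basigin, an inducer of metalloproteinases) by 0.93 ± 0.27 and Furin by 0.84 ± 0.16, and no gene of that list was higher. Il6 fell by 2.26 ± 0.67 and Il1b by 2.16 ± 0.28, while Runx1 (1.60 ± 0.21), Fos (0.92 ± 0.25) and Jun (0.46 ± 0.14) rose. The sheddases Adam19 (−1.43 ± 0.29), Adam9 (−0.94 ± 0.17) and Adam17 (−0.77 ± 0.21) fell, and Mmp17 rose by 0.99 ± 0.28. Matrix substrates gave 4 higher (Col3a1, 1.24 ± 0.35; Vcan, 0.88 ± 0.22; Lamc1, 0.65 ± 0.18; Ncan, 0.51 ± 0.14) and 3 lower (Lamb1, −2.73 ± 0.38; Hspg2, −1.25 ± 0.28; Dcn, −0.81 ± 0.18). Without replicate 13 these 19 calls were all made again. With a covariate for smooth muscle markers 1 gene was called in this comparison, against 1606 of the 7550 without it. Since the mean of these markers did not overlap between oxPAPC and medium, this drop cannot show what smooth muscle cells account for. Of the 8 lower macrophage markers, Mrc1 and Tyrobp lost their call without replicate 13, and the other 28 marker calls were made again.

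The stimuli were then compared directly, which tests whether their effects differ and does not use the medium arrays for the difference. Mmp13 was higher with LPS than with oxLDL by 3.99 ± 0.34 (15.9-fold, adjusted p = 0.000102) and than with oxPAPC by 3.84 ± 0.34 (14.3-fold, adjusted p = 0.000104). These folds are less certain than the direction, since all oxLDL and oxPAPC values of Mmp13 lay below the 40th percentile. Mmp13 also passed the level filter through the LPS arrays, so its calls here, and its place in the counts below, are a description. Mmp14 was higher with LPS than with oxLDL by 1.34 ± 0.21 (2.54-fold, adjusted p = 0.00635) and than with oxPAPC by 0.99 ± 0.21 (1.99-fold, adjusted p = 0.0141). These 2 of the 10 genes were called in each comparison, beside 5.07% of all genes for LPS against oxLDL and 8.65% for LPS against oxPAPC. For both genes the lowest LPS array exceeded the highest oxLDL and oxPAPC arrays.

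The Mmp14 difference was not the same on both probe sets. The second set averaged 5.86 (SD 0.41, n = 3) with LPS, 5.46 (SD 0.17, n = 3) with oxLDL and 5.08 (SD 0.10, n = 3) with oxPAPC. It gave 0.40 for LPS against oxLDL, which was not called (95% interval −0.06 to 0.87, adjusted p = 0.306), and 0.78 for LPS against oxPAPC, which was (adjusted p = 0.044). On the main probe set the call against oxPAPC was lost without LPS replicate 4 and without oxPAPC replicate 11 or 12 (highest adjusted p = 0.0684).

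For LPS against oxPAPC, Timp1 differed by 1.87 ± 0.61 (95% interval 0.53 to 3.21, adjusted p = 0.0805) and Adamts4 by 1.47 ± 0.54 (0.28 to 2.65, adjusted p = 0.117). Without oxPAPC replicate 13, 5 of the 10 genes were higher with LPS, beside 16% of all genes. These were Mmp13 (3.85), Timp1 (2.71 ± 0.45), Adamts4 (2.16 ± 0.43), Mmp3 (1.27 ± 0.37) and Mmp14 (1.22 ± 0.19). The calls of Mmp13 and Mmp3 are a description, since both passed the level filter only with the LPS arrays. None of the 10 was called lower with LPS in either version. Adamts4 was also called without LPS replicate 10 (1.99 ± 0.53, adjusted p = 0.0405).

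Between oxLDL and oxPAPC, given at the same mass concentration, none of the 10 genes was called by limma, beside 12.4% of all genes. Mmp2 was higher by 0.55 with oxLDL (95% interval 0.12 to 0.98, adjusted p = 0.0867), with no overlap of the arrays. Its unadjusted p from limma was under 0.05, which is not a call, and no share of all genes at this threshold is given here. Timp1 differed by 0.94 (95% interval −0.40 to 2.28) and Adamts4 by 0.78 (−0.41 to 1.96). Without oxPAPC replicate 13 both were called higher with oxLDL, Timp1 by 1.77 ± 0.45 (adjusted p = 0.0204) and Adamts4 by 1.47 ± 0.43 (adjusted p = 0.0376), beside 18.1% of all genes. A Timp2 probe set other than the main one was lower with oxLDL by 0.74 (adjusted p = 0.0234), while the main set gave 0.04 (95% interval −0.27 to 0.35).

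In the surrounding genes the direct comparisons gave Il1b higher with LPS than with oxLDL by 1.58 ± 0.28 and than with oxPAPC by 3.81 ± 0.28. Il6 was higher by 2.58 ± 0.67 and 3.39 ± 0.67, and Ets1 by 0.53 ± 0.13 and 0.68 ± 0.13. Plau was higher with LPS than with oxPAPC by 1.55 ± 0.20 and Plat by 1.72 ± 0.37. Runx1 and Jun were lower with LPS than with oxPAPC, by −1.07 ± 0.21 and −0.59 ± 0.14. With oxLDL, Il1b was higher than with oxPAPC by 2.22 ± 0.28, Plau by 1.09 ± 0.20, Furin by 0.78 ± 0.16 and Adam9 by 0.64 ± 0.17, and Runx1 and Jun were lower by −1.18 ± 0.21 and −0.53 ± 0.14. All these calls against oxPAPC arrays were made without replicate 13 too.

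Fresh intima of ApoE -/- and wild-type mice was compared before lesions form, where loss of Apoe and raised lipids go together. None of the 7 genes above the level filter was called by limma, beside 0.427% of all 7264 genes tested (31 genes). Mmp14 and Adamts10 had an unadjusted p from limma under 0.05, which is not a call, and no share of all genes at this threshold is given here. Mmp14 measured 6.49, 6.24, 5.96 and 6.44 in ApoE -/- replicates 3 to 6 and 5.69 to 6.15 in wild type, a difference of 0.39 ± 0.14 (95% interval 0.08 to 0.70, adjusted p = 0.189). Its second probe set gave 0.58 ± 0.18 (adjusted p = 0.146). Adamts10 measured 8.72, 8.83, 8.63 and 9.14 against 8.33 to 8.83, a difference of 0.32 ± 0.13 (95% interval 0.03 to 0.62, adjusted p = 0.237). Both groups of arrays overlapped for each gene.

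Mmp2 measured 7.50, 7.33, 7.35 and 7.71 in ApoE -/- (difference −0.29, 95% interval −0.75 to 0.18), Adamts1 8.93, 8.97, 8.63 and 8.30 (−0.28, −0.68 to 0.13) and Adamts4 5.01, 4.86, 5.09 and 4.01 (0.30, −0.43 to 1.03). Adamts4 was near background, with 3 of 4 ApoE -/- and 2 of 6 wild-type arrays above the 40th percentile. Its second probe set went the other way, by −0.23 (95% interval −0.66 to 0.20). Timp2 measured 10.83, 10.86, 10.87 and 10.83 (difference −0.16, 95% interval −0.37 to 0.06). Timp3 measured 11.29, 11.26, 11.27 and 11.21, below every wild-type array, by a difference of −0.13 that was not called (95% interval −0.30 to 0.04, adjusted p = 0.385). Its other probe sets gave 0.07, −0.06 and −0.18, none called and all with overlap of the arrays.

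The 3 genes below the filter in fresh intima differed by 0.25 (Mmp3, 3.73 to 4.51 in ApoE -/-), −0.05 (Mmp13, 2.70 to 3.34) and 0.08 (Timp1, 3.96 to 4.55), with exact two-sided permutation p of 0.143, 0.690 and 0.738. In the surrounding lists the laminin chain Lamc1, higher by 0.74 ± 0.10 in ApoE -/- (adjusted p = 0.0259), was the call. None of 12 smooth muscle markers was called (median difference 0.45), and of 5 erythroid and platelet markers the platelet chemokine Ppbp was lower, by −2.93.

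Across the 6 groups the genes fell into different orders by mean. Adamts4 had its highest mean with LPS (10.22, SD 0.97), followed by medium, oxLDL and oxPAPC, each overlapping the next, and then by fresh ApoE -/- (4.74, SD 0.50) and wild type (4.44, SD 0.66) across a gap of 4.01. Adamts1 ran from medium (11.04, SD 0.24) through oxLDL, oxPAPC and LPS to fresh wild type (8.98, SD 0.32) and ApoE -/-, with a gap of 1.64 between incubated and fresh arrays. For Timp1 every group overlapped the next in order, from LPS (7.26, SD 0.32) to wild type (4.15, SD 0.38). Mmp2 and Adamts10 had the reverse order of fresh and incubated arrays, with gaps of 1.66 and 3.39 between them. For Mmp13 the main gap lay between LPS and all other groups (3.57), with a smaller one of 0.62 between oxLDL and fresh wild type. Timp2 had fresh wild type and ApoE -/- highest, with gaps of 0.23 down to medium and 0.19 from medium to oxLDL. For Mmp3, Mmp14 and Timp3 every group overlapped the next.

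The genes most like each of the 8 genes called at least once were those with the smallest root mean square distance between the 6 centred group means, among 7941 genes. For Mmp13 these were Cxcl10 (distance 0.45), Il1rn (0.48) and Ccl5 (0.51), which are 2 chemokines and the interleukin-1 receptor antagonist. For Adamts4 they were Plau (0.22), Asns (0.26) and Psat1 (0.32), for Timp1 Cd86 (0.19), Tifa (0.19) and Plat (0.19), and for Adamts1 Ipo7 (0.086), Hccs (0.10) and Vegfa (0.12). Adamts10 was nearest to Hspa12b (0.40), Eln (0.49) and 4930520O04Rik (0.60), and Mmp2 to Nrbp2 (0.20), H2az2 (0.21) and Hey2 (0.23). Mmp14 was nearest to Sox5 (0.15), Sptlc1 (0.19) and Parp8 (0.22), and Timp2 to Spef1 (0.032), Tulp3 (0.048) and Mfng (0.051). The distances are in log2 units over 6 group means that share their arrays, and they describe likeness of level only.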

How the data were processed

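RNA of scraped mouse aortic intima was measured on 22 Affymetrix arrays. Per the submitters' processing notes, RMA in the affy package (no version given) made the deposited values, which are log2 signals. Quantile normalization, a step of RMA, hides any shift common to most genes. Probe sets were named through the platform annotation, updated from RefSeq (GRCm38.p6, used for names and promoters; the build of the array design is not given in the sources used here). There were 22626 probe sets, 18003 of them with a single gene symbol (17977 matched in RefSeq); the 287 with several symbols and the 4336 without one were left out. For each gene the probe set with the highest mean was used. A gene entered a fit when its signal exceeded the array's 40th percentile in as many arrays as the smaller group holds, which left 7264, 7508 and 7550 genes. Two-sided tests used limma 3.58.1 (lmFit, eBayes) in R 4.3.3, and p-values were adjusted by Benjamini-Hochberg across every gene in the fit. The fits were separate for fresh arrays, for medium with fresh wild type, and for all incubated arrays. Genes below the filter had exact permutation tests. The fits were tested on simulated data.

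Named genes were the 10 genes, called members of 6 lists of related genes (at most 8 per list and comparison, by size of change) and the 3 genes most like each called gene. The genes and lists were chosen with earlier results of these data known. Alternatives covered scaling, filter, probe set, a smooth muscle covariate, the groups fitted and each array left out. The number of arrays limits the precision.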

Additional observations from a re-analysis of the deposited data

Results flagged for a closer look

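In groups of 4 to 10 arrays, the array farthest from the others was tested by Dixon's ratio in 20 groups, of which 2 exceeded the 95% critical value; chance gives about 1 in 20. Mmp3 in wild-type replicate 13 measured 4.03, where the next highest array had 3.72 and the gap was 0.707 of the range, all below the 40th percentile. Timp2 in wild-type replicate 14 measured 10.73, where the next lowest had 10.997 and the gap was 0.655 of the range.

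The direct comparisons between stimuli gave 4 differences called by limma. Mmp13 was higher with LPS than with oxLDL by 3.99 and than with oxPAPC by 3.84. Both are a description, since Mmp13 passed the level filter through the LPS arrays. Mmp14 was higher with LPS than with oxLDL by 1.34 and than with oxPAPC by 0.99. The second Mmp14 probe set gave 0.40 and 0.78 for the same differences, and the first of these was not called.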

How the results depend on the processing

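The counts of called genes among the 10 and each gene's difference were recomputed under other settings. Of the single-gene values 877 kept direction and call, 35 turned direction, 13 lost and 11 gained a call (single further probe sets not counted), and of the counts 87 stayed within 1.5 times the main count, 10 fell and 4 rose. No difference that was called turned direction under any alternative run, and the cause of the changes below was not tested.

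With a covariate for smooth muscle markers, the called genes numbered 1 for LPS and 0 for oxPAPC against medium. Directions turned for Adamts4 in ApoE -/- (−0.253), for Mmp13 (0.0478), Adamts4 (0.805) and Timp1 (0.364) with oxLDL, for Mmp13 (0.407) and Adamts4 (0.402) with oxPAPC, for Adamts10 in LPS against oxPAPC (0.0143) and for Mmp3 in oxLDL against oxPAPC (−0.183). With the mean of all probe sets, oxPAPC against medium had 2 called genes, and directions turned for Timp2 in ApoE -/- (0.0270), for Timp2 (0.0563) and Timp3 (0.0425) in LPS against oxLDL, and for Mmp14 (0.0119), Timp2 (−0.199) and Timp3 (−0.0614) in oxLDL against oxPAPC. Median centring turned Mmp3 in oxLDL against oxPAPC (−0.0332).

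Leaving out 1 array at a time gave 1 to 2 called genes for LPS, 0 to 4 for oxPAPC, 1 to 5 for LPS against oxPAPC and 0 to 2 for oxLDL against oxPAPC. The highest count of each of the last 3 came without oxPAPC replicate 13. Ranges that crossed 0 were those of Mmp14 after incubation (−0.0543 to 0.159), of Adamts1 (−0.197 to 0.0288), Adamts4 (−0.178 to 0.183) and Adamts10 (−0.376 to 0.107) with oxLDL, of Mmp3 with oxPAPC (−0.0549 to 0.912), of Mmp2 (−0.150 to 0.0972) and Adamts10 (−0.278 to 0.0246) in LPS against oxPAPC, and of Mmp3 (−0.395 to 0.638), Mmp13 (−0.366 to 0.0543) and Timp2 (−0.0950 to 0.112) in oxLDL against oxPAPC.

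Over all genes, the smooth muscle covariate changed the calls from 31 to 1 (ApoE -/-), 4410 to 2196 (incubation), 683 to 123 (LPS), 212 to 10 (oxLDL), 1606 to 1 (oxPAPC), 653 to 416 (LPS against oxPAPC) and 934 to 552 (oxLDL against oxPAPC). For incubation, and for LPS and oxPAPC against medium, the covariate did not overlap between the groups. Those drops therefore cannot show what smooth muscle cells account for. It overlapped only in part for ApoE -/- (9.11 to 9.30, against 8.43 to 9.25 in wild type) and for oxLDL (8.12 to 8.60, against 7.35 to 8.26 in medium). There too the covariate largely runs along with the groups, and the drops cannot decide this. Without the level filter ApoE -/- had 6. Fitting only the groups compared gave 64 for oxLDL, 210 instead of 383 for LPS against oxLDL, 326 for LPS against oxPAPC and 543 for oxLDL against oxPAPC. Leaving out 1 array gave 1 to 68, 236 to 374, 23 to 269, 735 to 1999, 133 to 266, 244 to 1206 and 348 to 1370 for ApoE -/-, LPS, oxLDL, oxPAPC, LPS against oxLDL, LPS against oxPAPC and oxLDL against oxPAPC. The split of higher and lower calls went from 630 and 976 to 787 and 811 with median centring for oxPAPC, and with cyclic loess from 1824 and 2586 to 2218 and 2015 after incubation, from 167 and 216 to 219 and 165 for LPS against oxLDL and from 589 and 345 to 469 and 441 for oxLDL against oxPAPC.

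No paired analysis was possible because the groups compared share fewer than 2 replicate numbers. With 3 arrays a group, differences of low signals such as Mmp3 and, outside LPS, Mmp13 are limited by values near background.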
